A study of Mus musculus with 8 samples.

Results

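The genes described here are 35 genes of the unfolded protein response, the program that a cell runs when unfolded protein builds up in its endoplasmic reticulum (ER). They were taken by their symbol from a list of named ER chaperones and ER stress genes. The list was chosen with earlier results of these data known. All 35 were among the 24306 named genes on the arrays. They comprised 15 ER chaperones and folding enzymes, 6 sensors and transcription factors, 6 targets of Atf4 and Ddit3, 6 genes of ER-associated degradation and 2 genes of the translocon, the channel through which new protein enters the ER. Each gene was read from its brightest spot by the mean over the arrays, as a normalized log2 signal, so that a difference of 1 is a 2-fold change.

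The study asked what loss of the receptor isoform Fgfr2b does to cells of the alveolar type 2 (AT2) lineage in the adult mouse lung. There were 8 samples, each hybridized to 1 array. Experimental (E) mice carried Sftpc CreERT2/+, Fgfr2b flox/flox and tdTomato flox/flox, and control (C) mice carried the same Cre and reporter alleles with wild-type Fgfr2b. In these mice the Cre is driven from the locus of surfactant protein C, so that recombination and the red label are confined by design to cells that use this locus. All mice, controls included, drank water with tamoxifen at 1 mg/ml and were 9 to 12 weeks old by their labels. Epcam-positive lineage-labeled cells were sorted by flow cytometry into a Tom-low fraction, named injury-activated alveolar progenitors (IAAPs), and a Tom-high fraction, the mature AT2s. The arrays were E-IAAPs at days 4, 7 and 14, E-AT2s at days 4, 7 and 14, C-IAAPs at day 7 and C-AT2s at day 7. With 1 array per population and day, the 3 days stood in for replicates of the experimental populations, the single control arrays were assumed to vary alike, and the number of mice behind an array is not given in the sources used here.

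The unfolded protein response has separate arms that start from sensors in the ER membrane. Ern1 (Ire1) splices the Xbp1 message, Atf6 is cut into a free transcription factor, and Xbp1 and Atf6 then raise chaperones such as Hspa5 (BiP) and the degradation machinery. Eif2ak3 (Perk) phosphorylates the initiation factor eIF2alpha, which slows protein synthesis and favors translation of Atf4, whose targets serve amino acid supply and, through Ddit3 (Chop), cell death. AT2 cells make and secrete surfactant proteins through the ER, and misfolded surfactant protein C is a known source of ER stress in them. An array signal reads the total message of a gene, and neither the splicing of Xbp1 nor the phosphorylation of eIF2alpha.

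The C-IAAP array was unlike the rest. Over all genes it correlated with the other arrays at 0.845 to 0.876, against 0.915 to 0.971 among the other 7, and its background, taken as the 95th percentile of 1396 sensory receptor genes that lung cells are not known to use, was 8.67 against 6.46 to 7.28. All 12 AT2 markers were above background on all 8 arrays. The 20 markers of alveolar macrophages, cells that an Epcam gate would be set to leave out, had a median signal of 11.66 to 12.08 in E-IAAPs, 6.89 to 7.91 in E-AT2s, 9.72 in C-IAAPs and 6.90 in C-AT2s, and the 6 club and ciliated cell markers reached a median of 13.77 in E-IAAPs at day 14. Fgfr2, the targeted gene, was at 10.87 to 11.83 in E-IAAPs, 11.68 to 12.10 in E-AT2s, 11.72 in C-IAAPs and 12.45 in C-AT2s, from a spot whose position relative to the deleted exon was not known. In sorted bulk samples, fewer cells of a type and less RNA per cell cannot be told apart.

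The promoters of the genes were searched for the response elements of each arm, and the stretches below are shown because they carry the elements through which the arms are known to act. The ER stress response element (ERSE) is CCAAT, then 9 bases of any kind, then CCACG, and ERSE-II is ATTGG, then 1 base of any kind, then CCACG. Atf6 and Xbp1 are both known to bind these elements and the unfolded protein response element (UPRE, TGACGTG), and the C/EBP-ATF element (TGATGNAA) is bound by Atf4 with C/EBP partners. Each was searched on both strands of RefSeq promoters of the GRCm38.p6 build, 250 bases before to 50 after the start site, which were found for 31 of the 35 genes. The ERSE was present in 9 of the 31 (29%), against 37 of 27025 promoters of all genes (0.137%), and ERSE-II in 2 of the 31 (6.45%), against 12 (0.0444%). The C/EBP-ATF element was in 4 of the 31 (12.9%), against 4.51% of all promoters, and the UPRE in 1 (3.23%), against 2.22%. By role, 8 of 13 chaperones with a promoter and 3 of 5 degradation genes held an ERSE or ERSE-II, against 0 of 6 targets of Atf4 and Ddit3, whereas the C/EBP-ATF element was in 3 of those 6 targets, in Herpud1 and in 0 of 13 chaperones. A match is a description of the letters and not a shown site of binding. The genes were listed as known members of the response that these elements serve, so the higher shares are not independent evidence. Fixed bases of the motifs are in capitals, read 5′ to 3′ on the strand of the gene.
Hspa5 (chr2:34771920-34772050, plus strand, UPRE, then ERSE): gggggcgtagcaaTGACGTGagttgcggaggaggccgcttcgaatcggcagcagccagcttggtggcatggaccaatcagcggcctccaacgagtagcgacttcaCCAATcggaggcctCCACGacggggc
Hsp90b1 (chr10:86705525-86705664, minus strand, ERSE in each direction): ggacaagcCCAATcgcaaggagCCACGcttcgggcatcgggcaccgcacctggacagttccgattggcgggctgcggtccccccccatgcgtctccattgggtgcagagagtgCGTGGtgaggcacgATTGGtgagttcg
Calr (chr8:84847067-84847101, minus strand, ERSE reversed): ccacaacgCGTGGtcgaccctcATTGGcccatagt
Canx (chr11:50325792-50325826, minus strand, ERSE): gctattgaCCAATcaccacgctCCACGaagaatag
Pdia6 (chr12:17266483-17266517, plus strand, ERSE): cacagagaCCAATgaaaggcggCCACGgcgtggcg
Dnajc3 (chr14:118937819-118937853, plus strand, ERSE): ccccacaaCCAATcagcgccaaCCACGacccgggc
Creld2 (chr15:88819512-88819546, plus strand, ERSE reversed): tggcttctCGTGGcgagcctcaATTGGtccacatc
Syvn1 (chr19:6046524-6046558, plus strand, ERSE): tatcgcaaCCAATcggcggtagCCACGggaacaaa
Derl3 (chr10:75893234-75893268, plus strand, ERSE reversed): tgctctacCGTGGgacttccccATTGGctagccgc
Herpud1 (chr8:94386309-94386395, plus strand, C/EBP-ATF element reversed, then ERSE-II): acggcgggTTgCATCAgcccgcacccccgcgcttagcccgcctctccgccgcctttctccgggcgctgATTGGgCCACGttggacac
Chac1 (chr2:119351039-119351068, plus strand, C/EBP-ATF element reversed): ttccctgccgTTgCATCActcctgccaggt
Asns (chr6:7693215-7693254, minus strand, C/EBP-ATF element): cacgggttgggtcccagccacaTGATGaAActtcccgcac

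**Figure D1:**
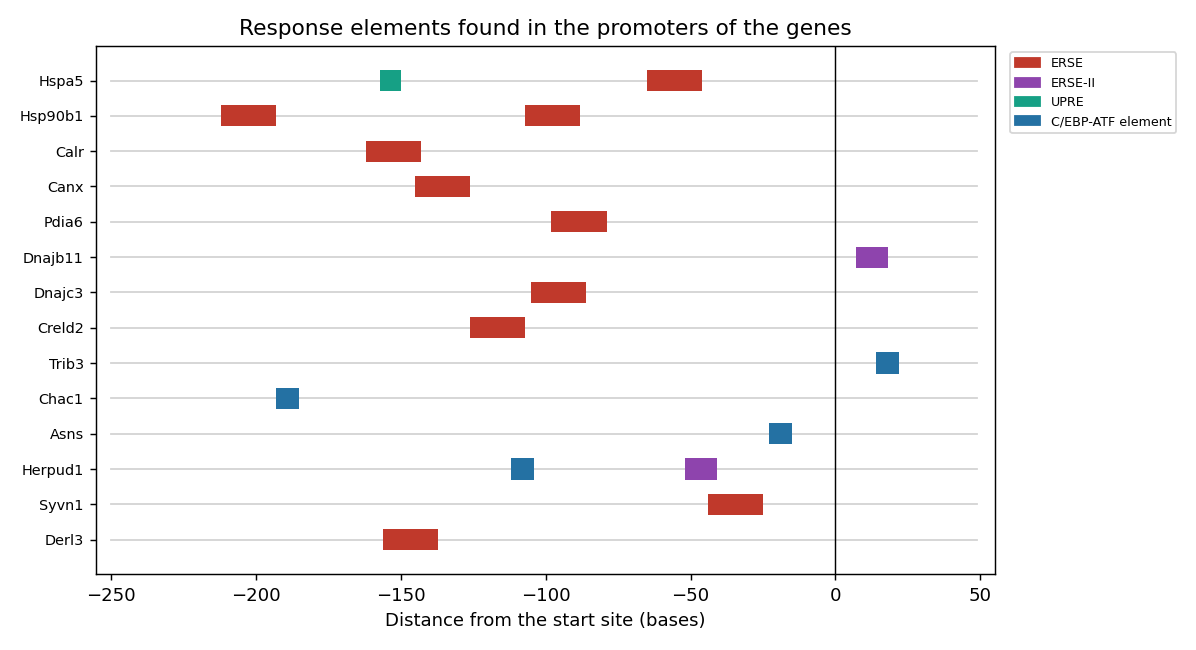
Position of each matched element in the promoters of the 14 genes that hold one, in bases from the start site (x axis, with 0 at the start), with the gray line marking the 300 bases searched and the color the element. Chaperones at the top carry the ERSE at 65 to 212 bases before the start, and the C/EBP-ATF element appears at Trib3, Chac1, Asns and Herpud1.

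All of the stretches except those of Chac1 and Asns belong to the chaperone and degradation arm. Hspa5, the main ER chaperone of the Hsp70 family, held its ERSE 65 bases before the start and a UPRE at 157, and Hsp90b1 (Grp94) held 2 ERSEs, at 212 and 107. Herpud1, which scaffolds the degradation complex, was the gene with elements of both arms, with ERSE-II at 52 and the C/EBP-ATF element at 112 bases before the start. The elements of Dnajb11 (ERSE-II) and Trib3 (C/EBP-ATF element) lay after the start site, at 7 and 14 bases.

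The chaperones were read well above background in every population. All 15 were above it on each array, except Hyou1 on that of C-IAAPs, and their median signal was 12.06 to 12.45 on the 7 other arrays and 11.73 in C-IAAPs. Of the 35 genes, 30 to 32 were above background on each array other than that of C-IAAPs, on which 25 were. Eif2ak3, Chac1 and Derl3 were at or below background on all 8 arrays, so that no level of theirs is described. They are included in the counts over the 35 genes, and over the 32 others 28 had a fitted difference below 0 in E-AT2s against C-AT2s, 22 in E-IAAPs against E-AT2s and 26 in C-IAAPs against C-AT2s. Over the 8 arrays Xbp1 lay between 11.55 and 12.47, Atf4 between 12.88 and 13.85, Atf6 between 8.90 and 9.44 and Ddit3 between 9.95 and 11.31. Xbp1 was lowest in C-IAAPs and highest in C-AT2s. Atf4 was lowest in E-AT2s at day 4 and highest in E-IAAPs at day 7, and Atf6 was lowest in E-AT2s at day 4 and highest at day 14. Ddit3 was lowest in E-IAAPs at day 4 and highest in C-IAAPs.

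**Figure D2:**
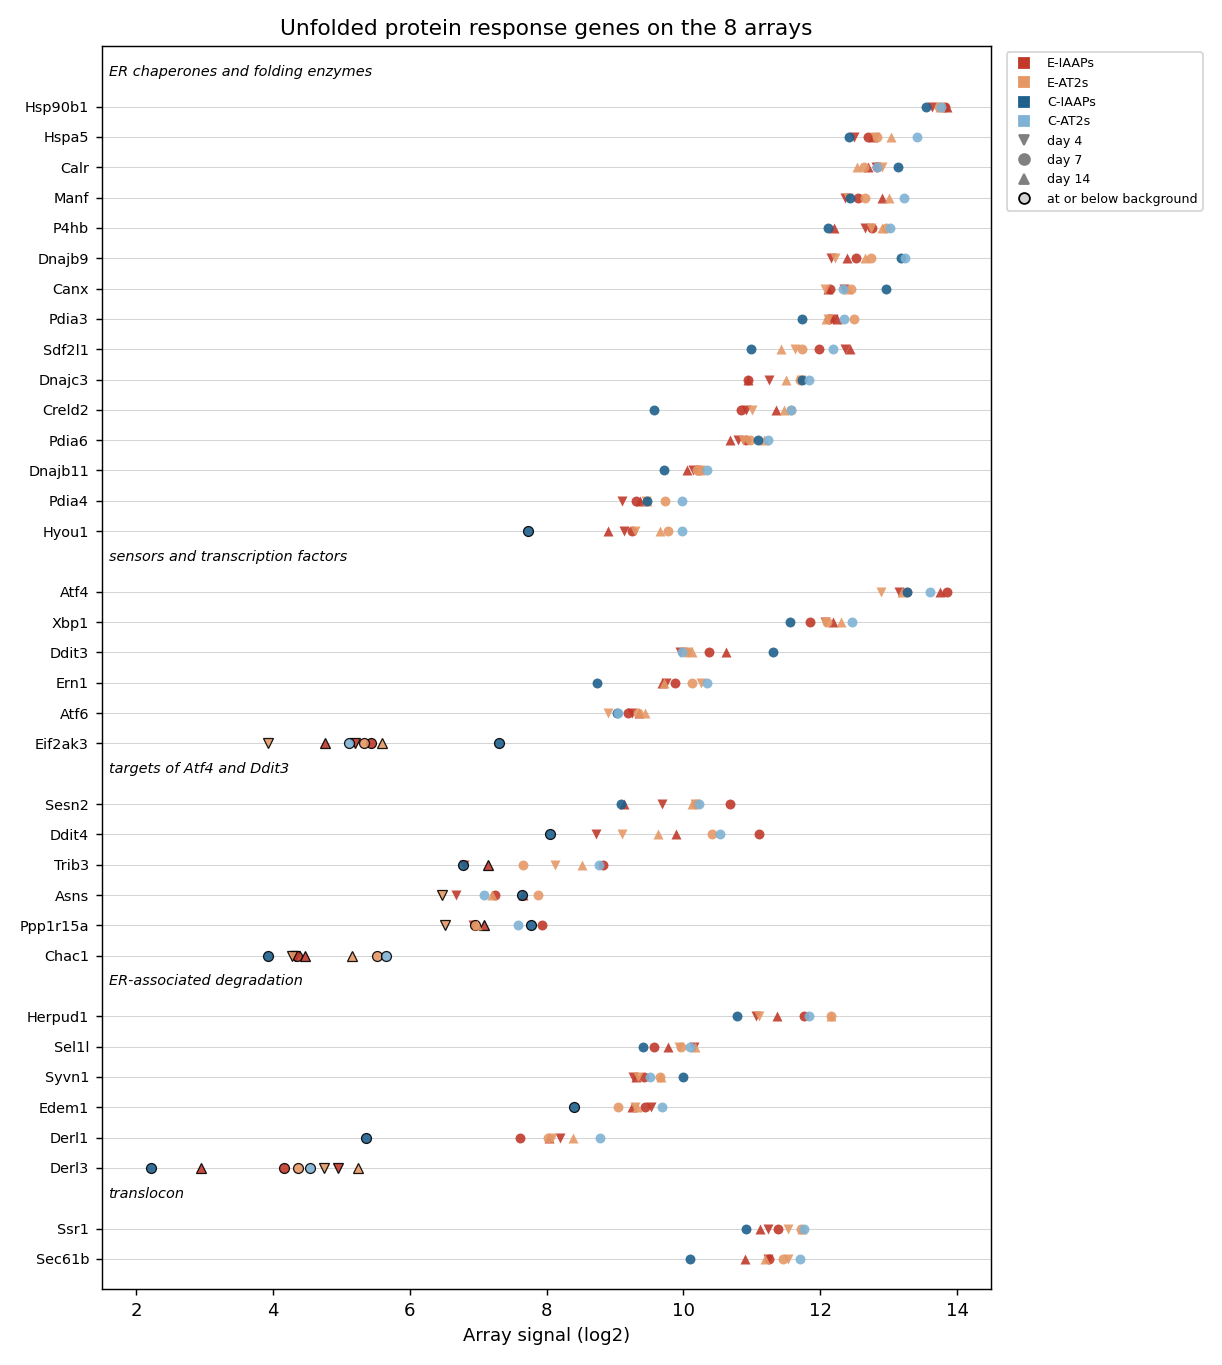
Normalized log2 signal (x axis) of each of the 35 genes (rows, grouped by role and sorted by mean) on the 8 arrays, with color for the population and marker shape for the day. A black outline marks a value at or below the background of its array, and Eif2ak3, Chac1 and Derl3 lie below background throughout.

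To ask what loss of Fgfr2b did to mature AT2s, E-AT2s were set against C-AT2s. The fitted differences of all 15 chaperones were below 0 in E-AT2s, by small amounts, but no gene passed the test. On day 7, the day shared with the control, 12 of the 15 were lower and 3 were higher. The median difference of the 15 chaperones was -0.22 and that of all 35 genes was -0.22 on the log2 scale, against 0.01 over all genes. For the 6 targets of Atf4 and Ddit3, Chac1 included, it was -0.67, with 5 below 0 and 1 above. On day 7 alone the median of these targets was -0.13. By count, 30 of the 35 genes had a fitted difference below 0, against 49% of all genes, and limma called 0 of the 35 and 0% of all genes at an adjusted p under 0.05. At an unadjusted p under 0.05 the counts were 0 of 35 and 1609 of 24306 (6.62%).

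Hspa5 had 12.80, 12.82 and 13.03 in E-AT2s at days 4, 7 and 14, against 13.42 in C-AT2s, a difference of -0.54 ± 0.33 (SE; adjusted p = 0.913, limma) with a 95% interval of -1.32 to 0.25. Dnajb9 (ERdj4), a co-chaperone of Hspa5, had 12.21, 12.74 and 12.65 in E-AT2s, against 13.23 in C-AT2s, a difference of -0.70 ± 0.37 (SE; adjusted p = 0.856, limma). Manf, a secreted ER stress factor, had 12.41, 12.65 and 13.00 in E-AT2s, against 13.22 in C-AT2s. In each of these genes the single C-AT2 array lay above all 3 E-AT2 arrays. The same held for 23 of the 35 genes and 11 of the 15 chaperones, against 25.2% of all genes.

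Sdf2l1, a partner of the Hspa5 complex, had 11.62, 11.74 and 11.42 in E-AT2s, against 12.18 in C-AT2s, and Pdia4, a disulfide isomerase, had 9.46, 9.74 and 9.47 in E-AT2s, against 9.98 in C-AT2s. These groups did not overlap either, whereas those of Calr, Canx, Pdia3 and Creld2 did. Xbp1 had 12.07, 12.10 and 12.31 in E-AT2s, against 12.47 in C-AT2s. Atf4 had 12.88, 13.26 and 13.20 in E-AT2s, against 13.60 in C-AT2s. Ddit3 was the gene of the set that lay higher in E-AT2s without overlap, against 25.4% of all genes, at 10.07, 10.04 and 10.12, against 9.98 in C-AT2s, a difference of 0.10 that is small beside its standard error of 0.37.

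C-AT2s gave the highest of the 8 signals for 16 of the 35 genes, 9 of them chaperones, against 12.7% of all genes. With the C-IAAP array left out, which was an alternative chosen after the data were seen, the count was again 16 of 35 (45.7%), against 16.7% of all genes. The shift was not limited to the ER. Of 11 cytosolic heat shock genes, 10 were lower in E-AT2s, with a median of -0.37, and 13 of 18 other ER folding genes were lower, with a median of -0.21, none of them past the test. The 24 genes used by every cell had a median of 0.00, with 12 lower. With arrays centered on those genes, the median of all genes moved to 0.10. There 25 of the 35 genes and 13 of the 15 chaperones were below 0, and the chaperone median was -0.13. Other spots for Hspa5 did not show the shift, with 11.69, 11.70 and 11.96 in E-AT2s against 11.78 in C-AT2s on one, and 9.92, 10.18 and 10.14 in E-AT2s against 10.01 in C-AT2s on another. With the mean of all spots of a gene, 28 of the 35 genes and 14 of the 15 chaperones were below 0.

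To ask how the fractions differ in the experimental mice, E-IAAPs were set against E-AT2s with the day as a block. In the paper, only a part of the Fgfr2b locus was mutated in E-IAAPs at day 7, and none was detected as mutated at day 14. In E-AT2s the mutated share rose between these days, so E-IAAPs are not a uniformly deleted fraction. No gene of the set passed the test, and most were slightly lower in E-IAAPs. The median difference was -0.20 for the 35 genes and -0.17 for the chaperones, against -0.05 over all genes, and 24 of 35 were below 0, against 54.5% of all genes. limma called 0 of the 35 against 1.31% of all genes, and 0 of 35 against 2839 of 24306 (11.7%) had an unadjusted p under 0.05. Lower signals on each of the 3 days were seen for 14 of the 35 genes, 9 of them chaperones, against 21.2% of all genes and 26.8% of the upper 50% of genes by mean level. Higher signals on each day were seen for 3, against 15.5% of all genes.

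Sdf2l1 was the gene of the set that lay higher in E-IAAPs without overlap, against 8.46% of all genes. It had 12.36, 11.98 and 12.43 in E-IAAPs, against 11.62, 11.74 and 11.42 in E-AT2s, a difference of 0.66 ± 0.29 (SE; adjusted p = 0.464, limma). Lower in E-IAAPs without overlap were 5 genes of the set: Hspa5, Pdia4, Dnajc3, Hyou1 and Ssr1. The same was seen for 10.7% of all genes and 14.6% of the upper 50% of genes by mean level. Dnajc3 (p58IPK), a co-chaperone that also inhibits Eif2ak3, had 11.25, 10.95 and 10.94 in E-IAAPs, against 11.71, 11.70 and 11.50 in E-AT2s. Hspa5 had 12.49, 12.70 and 12.77 in E-IAAPs, against 12.80, 12.82 and 13.03 in E-AT2s, and on its further spots the mean difference was -0.11 and 0.08. Hyou1 (Grp170), a nucleotide exchange factor for Hspa5, had 9.13, 9.25 and 8.90 in E-IAAPs, against 9.30, 9.78 and 9.66 in E-AT2s. None of them passed the test, in a fit with 2 residual degrees of freedom.

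On its brightest spot Atf4 was higher in E-IAAPs on each day, with 13.15, 13.85 and 13.74 in E-IAAPs, against 12.88, 13.26 and 13.20 in E-AT2s, a difference of 0.47 ± 0.26 (SE; adjusted p = 0.537, limma). Its groups overlapped. A further spot for Atf4, above background on all arrays, had 10.85, 11.65 and 10.96 in E-IAAPs, against 11.27, 11.12 and 11.18 in E-AT2s, a mean difference of -0.04, so that the direction was not shared by the spots. Of 26 other Atf4 targets, 10 were higher in E-IAAPs on each day and 3 were lower on each day, and none passed the test. The alveolar macrophage markers moved with this comparison, with 16 of 20 called higher in E-IAAPs at a median difference of 4.33, and the 12 AT2 markers were all below 0 at a median of -0.35. The part of either in the values of the 35 genes was not tested.

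**Figure D3:**
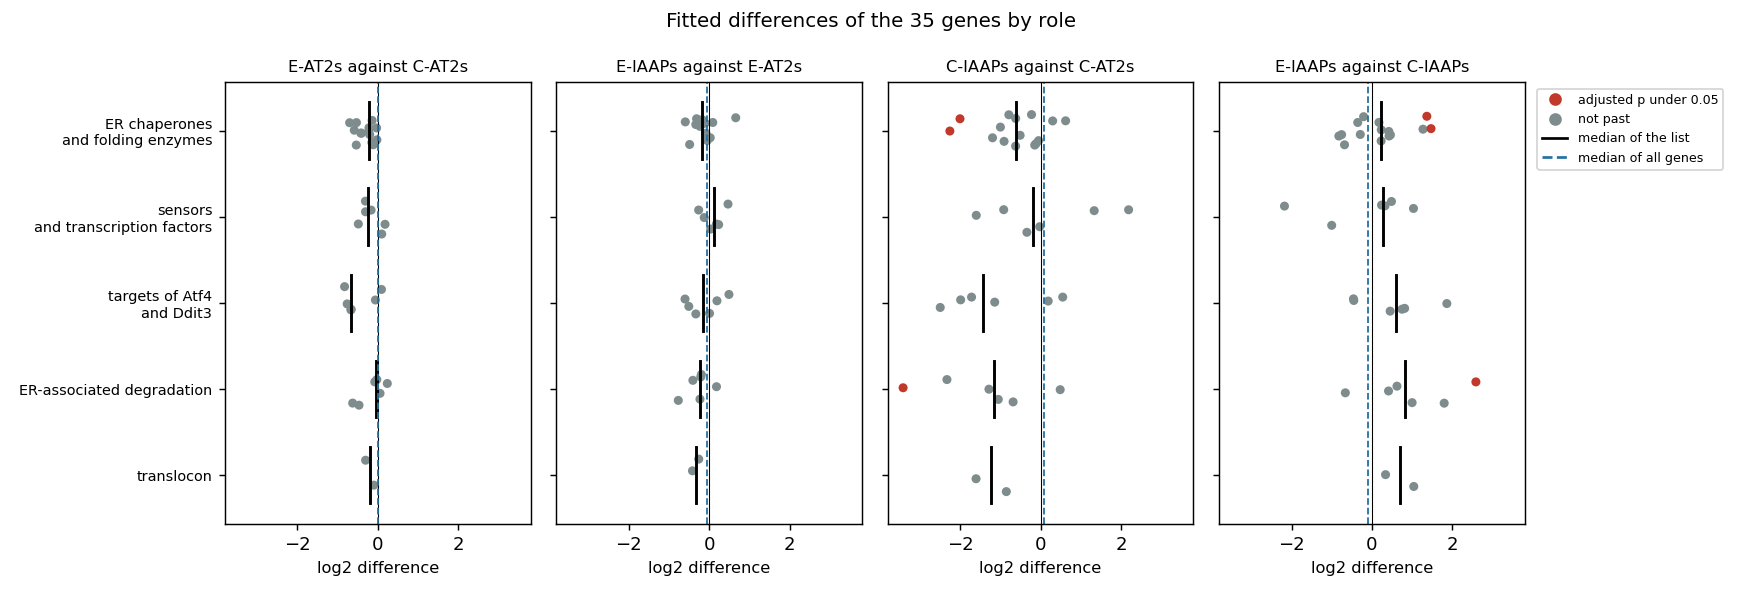
Fitted log2 difference (x axis) of each of the 35 genes, by role (rows), in 4 comparisons, with red for an adjusted p under 0.05, a black bar for the median of the role and a dashed line for the median of all genes. All 15 chaperones lie below 0 in E-AT2s against C-AT2s, and the called genes, 3 in each of the panels that use the C-IAAP array, are Derl1, Hyou1 and Creld2.

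In the control mice, which carry wild-type Fgfr2b, C-IAAPs were set against C-AT2s with 1 array each. The spread came from the days of the experimental populations. limma called 3 of the 35 genes lower in C-IAAPs and 0 higher, against 13.9% of all genes called in either direction and 7.77% called lower. Derl1, a channel component that moves misfolded protein out of the ER, had 5.36 in C-IAAPs, against 8.78 in C-AT2s (-3.42 ± 0.47 SE, adjusted p = 0.00901, limma). Hyou1 had 7.73 in C-IAAPs, against 9.98 in C-AT2s (adjusted p = 0.0225, limma). Creld2, an ER stress-induced isomerase, had 9.56 in C-IAAPs, against 11.57 in C-AT2s (-2.00 ± 0.49 SE, adjusted p = 0.0415, limma).

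The values of Derl1 and Hyou1 in C-IAAPs lay below the raised background of that array. The spots of Hyou1 were all below that background. On its brightest spot the signal was at least 2.49-fold lower in C-IAAPs than in C-AT2s, counted from the background level. Its next spots gave smaller differences, with 8.32 in C-IAAPs against 9.29 in C-AT2s on one (-0.97). On another they were 6.80 and 7.93 (-1.13), so the bound holds for the brightest spot only. Sec61b of the translocon had 10.09 in C-IAAPs against 11.70 in C-AT2s, a difference of -1.60. On a further spot above background on all arrays it had 10.11 against 10.55, a difference of -0.44. Ern1 had 8.74 in C-IAAPs against 10.34 in C-AT2s. Neither gene passed the test. Ddit3 had 11.31 in C-IAAPs, against 9.98 in C-AT2s, a difference of 1.33 ± 0.46 (SE; adjusted p = 0.098, limma). By direction, 28 of the 35 genes were lower in C-IAAPs, at a median of -0.79, against 47.3% and 0.09 for all genes. With arrays centered on genes used by every cell, the median of all genes moved to 0.43. There 23 of the 35 and 9 of the 15 chaperones were lower, and the median of the 35 was -0.45. Without that centering, 15 of the 24 genes used by every cell were lower in C-IAAPs, at a median of -0.27. The 24 include Vcp, which is also the degradation gene named below. Among the upper 50% of genes by mean level, 53.6% were lower. Without the experimental arrays of any 1 of the days, Derl1 was the call of the set that remained. Of 20 other degradation and translocon genes, 8 were called lower in C-IAAPs and 0 higher, among them Vcp, the ATPase that draws proteins out of the ER, with 11.03 in C-IAAPs against 12.67 in C-AT2s.

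Markers of other cell types moved with this comparison. The 20 alveolar macrophage markers had a median signal of 9.72 in C-IAAPs, against 6.90 in C-AT2s, with 10 called higher and 1 lower, and 13 were above background in C-IAAPs, against 10 in C-AT2s. The 8 markers of alveolar type 1 (AT1) cells had a median of 9.51 in C-IAAPs, against 7.43 in C-AT2s, with 2 called higher. The 6 neutrophil markers had a median of 10.56 in C-IAAPs, against 6.59 in C-AT2s, with 0 called, and 5 were above background in C-IAAPs, against 2 in C-AT2s. The 12 AT2 markers had a median of 13.67 in C-IAAPs, against 14.09 in C-AT2s, with 0 called. Their part in the values of the 35 genes was not tested.

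The same C-IAAP array was the reference for E-IAAPs, so the next values are not independent of those just given. limma called 3 of the 35 genes higher in E-IAAPs and 0 lower, against 17.1% of all genes called in either direction and 9.35% called higher. Derl1 had 8.20, 7.61 and 8.04 in E-IAAPs, against 5.36 in C-IAAPs (2.59 ± 0.38 SE, adjusted p = 0.00778, limma), and all 3 E-IAAP values were below the C-IAAP background of 8.67. Creld2 had 10.91, 10.84 and 11.35 in E-IAAPs, against 9.56 in C-IAAPs (1.47 ± 0.40 SE, adjusted p = 0.0487, limma). Hyou1 had 9.13, 9.25 and 8.90 in E-IAAPs, against 7.73 in C-IAAPs (adjusted p = 0.0454, limma), on this spot at least 1.34-fold higher by the same bound. Its next spots did not show the difference, with 8.16, 8.62 and 8.20 in E-IAAPs against 8.32 in C-IAAPs on one, and 6.53, 7.08 and 5.98 in E-IAAPs against 6.80 in C-IAAPs on another, and with the mean of all spots it was -0.24. None of the 3 calls held without the experimental arrays of day 4, and Derl1 was the call that held without those of day 7 or of day 14.

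By direction, 24 of the 35 genes were higher in E-IAAPs than in C-IAAPs, against 46.5% of all genes, at a median of 0.41, against -0.10 for all genes. With arrays centered on genes used by every cell, 15 of the 35 were lower in E-IAAPs and the median was 0.11. Higher in E-IAAPs without overlap were 22 of the 35, against 33.8% of all genes, and lower without overlap were 9, against 40%. The 9 included Dnajb9, at 12.16, 12.53 and 12.40, against 13.19 in C-IAAPs, and Dnajc3, at 11.25, 10.95 and 10.94, against 11.73 in C-IAAPs. Neither passed the test, at an adjusted p of 0.174 and 0.204 by limma, and a further spot for Dnajb9 had a difference of 0.05. Among the markers of other cell types, 7 of 20 for alveolar macrophages were called higher in E-IAAPs and 3 of 8 for AT1 cells lower, and their part was not tested. Ddit3 had 9.95, 10.37 and 10.62 in E-IAAPs, against 11.31 in C-IAAPs (adjusted p = 0.111, limma). C-IAAPs gave the lowest of the 8 signals for 21 of the 35 genes, against 25.9% of all genes and 36.7% of the upper 50% by mean level.

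The test of whether the difference between the fractions depended on genotype called Derl1 alone of the 35, against 4.37% of all genes, at 3.21 ± 0.54 (SE; adjusted p = 0.031, limma). This call was lost without the experimental arrays of any 1 of the days, at 3.04 to 3.31. A further spot for Derl1 went the other way. On that spot C-IAAPs had 9.13, against 6.94 in C-AT2s, and E-IAAPs had 7.37, 6.53 and 6.26. With the mean of both spots Derl1 was not called in any of these comparisons. Of the 9 genes of the set with more than 1 spot above background on every array, the spots had the same sign for 8 in C-IAAPs against C-AT2s, 7 in E-IAAPs against E-AT2s and 6 in each of the others.

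Over the days, the targets of Atf4 and Ddit3 in the set varied more than the chaperones did. In E-IAAPs the range over days 4, 7 and 14 had a median of 1.55 for the 5 targets other than Chac1 and 0.28 for the 15 chaperones, against 0.76 for all genes and 0.57 for the upper 50% by mean level. The range was above 1 for 4 of these 5 targets and 0 of the 15 chaperones, against 35.7% of all genes and 22.3% of the upper 50%. All 4 were highest at day 7, a pattern seen in 12.7% of all genes and 7.66% of the upper 50%. The ranges were not matched for signal level. The chaperones lay well above background, whereas Trib3, Asns and Ppp1r15a were above it on 6, 6 and 4 of the 8 arrays. With 1 array per day there is no test of these courses.

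Ddit4 (Redd1), an inhibitor of mTORC1 signaling, had 8.72, 11.11 and 9.90 in E-IAAPs at days 4, 7 and 14. Trib3, a pseudokinase that Ddit3 induces, had 6.80, 8.83 and 7.14, of which the day 14 value was below background. Ppp1r15a (Gadd34), which returns eIF2alpha to its unphosphorylated form, had 6.92, 7.93 and 7.08, the day 14 value again below background. Sesn2, a leucine sensor, had 9.68, 10.68 and 9.13. In each of these genes day 7 stood above both other days. Asns, which makes asparagine, had 6.68, 7.24 and 7.65 and was highest at day 14.

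**Figure D4:**
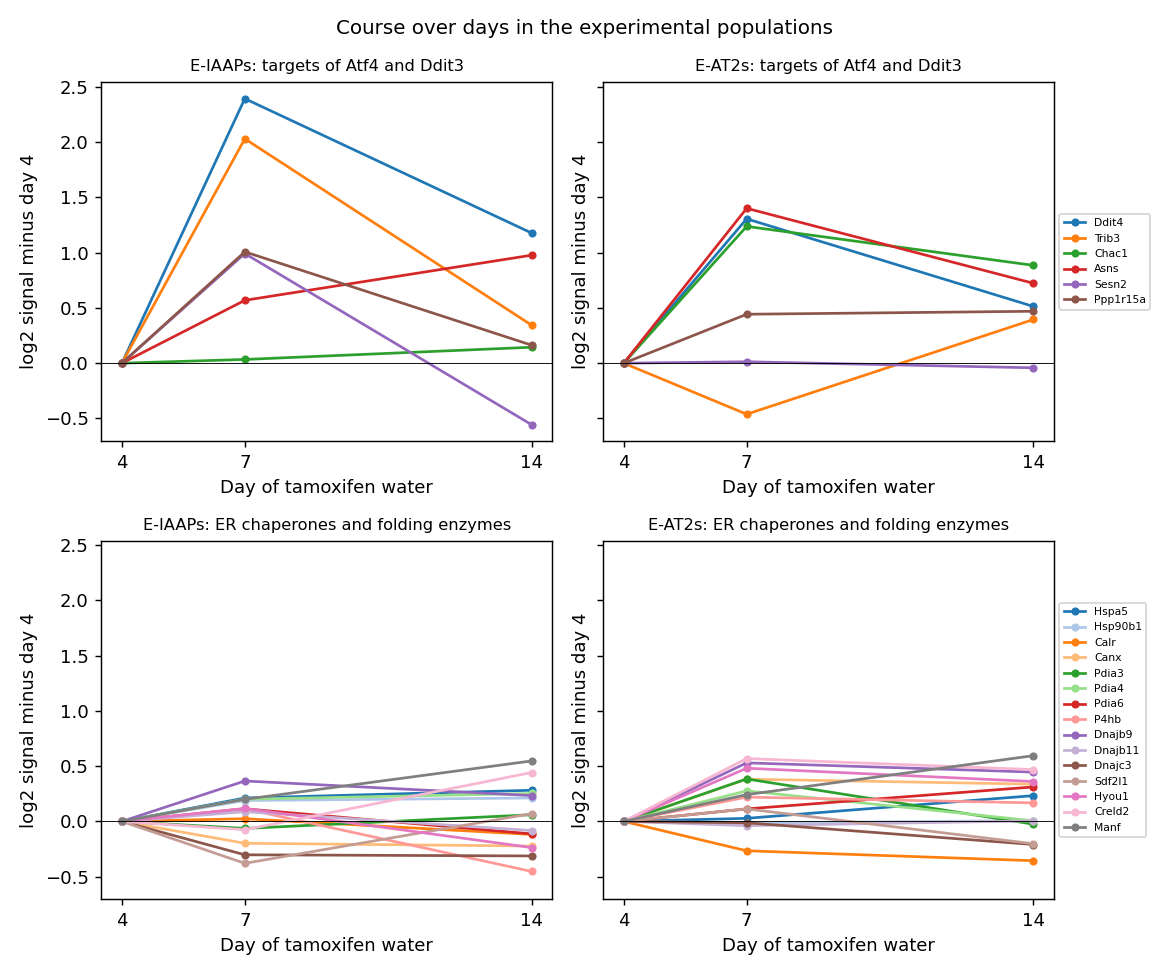
Log2 signal minus the day 4 value (y axis) at days 4, 7 and 14 of tamoxifen water (x axis), for the 6 targets of Atf4 and Ddit3 (top) and the 15 chaperones (bottom) in E-IAAPs and E-AT2s, 1 line a gene and 1 array a point. Ddit4 and Trib3 stand out at day 7 in E-IAAPs, no chaperone has a range above 1, and Chac1 was below background throughout.

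In E-AT2s the median range was 0.86 for the 5 targets and 0.32 for the chaperones. It was 0.75 for all genes and 0.55 for the upper 50% by mean level. Of the 5 targets, 2 had a range above 1, against 35.2% of all genes and 19.4% of the upper 50%. Ddit4 had 9.11, 10.41 and 9.62 in E-AT2s and Asns had 6.47 (below background), 7.88 and 7.20, both highest at day 7. Trib3 had 8.12, 7.66 and 8.51 in E-AT2s and was lowest at day 7, and Sesn2 stayed between 10.13 and 10.18. On day 7 alone the median difference between E-IAAPs and E-AT2s was 0.70 for the 5 targets and -0.20 for the chaperones, whereas it was -0.39 and -0.09 on day 4 and 0.10 and -0.18 on day 14. At day 7 the control arrays had 8.05 in C-IAAPs and 10.54 in C-AT2s for Ddit4, the value in C-IAAPs being below background.

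Of the 26 other Atf4 targets, 15 were highest at day 7 and 16 lowest at day 4 in E-IAAPs, against 35.6% and 34.7% of all genes. Their median signal there was 8.42, 8.95 and 8.50 at days 4, 7 and 14. Their range over these days did not stand out, with a median of 0.70, against 0.76 for all genes. It was above 1 for 6 of the 26 (23.1%), against 35.7% of all genes. Of the 26, 4 (15.4%) were highest at day 7 with a range above 1, against 12.7% of all genes. On its brightest spot Atf4 itself had its lowest value at day 4 in both experimental populations. Its further spot was also lowest at day 4 in E-IAAPs. In E-AT2s that spot was highest at day 4, with 11.27, 11.12 and 11.18 at days 4, 7 and 14. Ddit3 had 9.95, 10.37 and 10.62 in E-IAAPs over the days and stayed between 10.04 and 10.12 in E-AT2s. A further spot for Ddit3 did not show this course. It had 6.41, 6.22 and 6.62 in E-IAAPs, each below background, and 7.01, 7.82 and 7.25 in E-AT2s. Herpud1, the gene with elements of both arms, had 11.06, 11.77 and 11.37 in E-IAAPs, and 11.10, 12.16 and 12.16 in E-AT2s, where its range was 1.05. The other 10 genes with an ERSE or ERSE-II, apart from Derl3, which was below background, had ranges under 1 in both populations.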

How the data were processed

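Total RNA of 8 sorted samples was amplified, and the labeled cDNA was hybridized to Agilent mouse arrays. The deposited values are log2 signals, which the authors corrected for background with NormExp and quantile-normalized in limma (version not given in the sources used here). Of 62976 spots, 43941 carried 1 symbol in the platform annotation and were assigned to 24306 genes by accession, symbol or synonym. The brightest spot by the mean of the 8 arrays stood for a gene.

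Tests were run with limma 3.58.1 in R 4.3.3. E-IAAPs and E-AT2s were compared on 6 arrays with the day as a block (2 residual degrees of freedom). The remaining comparisons and the interaction came from 1 fit of all 8 arrays in 4 populations (4 residual degrees of freedom). Benjamini-Hochberg adjustment covered the whole table of 24306 genes, at a threshold of 0.05, and p-values measure only the spread between arrays. A gene whose spots were all below background in a group was given a bound in place of a fold. The fits were tested on simulated data.

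Genes named are members of the set and, from other lists, those of highest mean signal or, where 5 or fewer were called, those called. The members, lists and comparisons were chosen with earlier results of these data known. Scaling, spot choice, low-signal filter, variance model and left-out days were varied.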

Additional observations from a re-analysis of the deposited data

Results flagged for a closer look

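Derl1 was singled out because the difference between C-IAAPs and C-AT2s was not that between E-IAAPs and E-AT2s. The test of that difference gave 3.21 ± 0.54 on the log2 scale (SE; adjusted p = 0.031, limma). The difference between the fractions was -0.21 in E-IAAPs against E-AT2s and -3.42 in C-IAAPs against C-AT2s. The low end of it is a single C-IAAP value of 5.36, below the background of that array, and a further spot for the gene gave 9.13 there. With the mean of both spots the interaction was 0.40 and was not called.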

How the results depend on the processing

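The absence of calls among the 35 genes in E-IAAPs against E-AT2s and in E-AT2s against C-AT2s held under all alternatives run. The calls that use the C-IAAP array did not. In E-IAAPs against C-IAAPs the count of called genes was 8 among the upper 50% of genes, 10 with an intensity trend and robust prior and 0 with day as a term. In C-IAAPs against C-AT2s it was 8, 9 and 1 under the same settings and 5 with arrays centered on the median, and for the interaction it was 4, 4 and 0, and 0 with the mean of all spots. Leaving out the experimental arrays of each day in turn gave 0 to 1, 1 and 0 calls in these comparisons.

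With arrays centered on the median, the medians were -0.27 for the chaperones in E-IAAPs against E-AT2s and 0.49 for all members in E-IAAPs against C-IAAPs. With arrays centered on genes used by every cell they were 0.11 for the members and -0.075 for the chaperones in E-IAAPs against C-IAAPs, and -0.13 for the chaperones in E-AT2s against C-AT2s. The median of all genes then moved to -0.40 in E-IAAPs against C-IAAPs and to 0.43 in C-IAAPs against C-AT2s. Further quantile normalization gave 0.38 for the chaperones in E-IAAPs against C-IAAPs. The mean of all spots gave 0.15 for the members and -0.24 for the chaperones there, and turned Hyou1 to -0.24. The targets of Atf4 and Ddit3, Chac1 included, had a median of -0.16 in E-IAAPs against E-AT2s, and of 0.0086 among the upper 50% of genes, which leave Chac1 out. In E-AT2s against C-AT2s their median was -0.67, and it moved to -0.072 with day as a term and to -0.13 on day 7 alone. Without the arrays of each day in turn, the medians of members and of chaperones were -0.23 to -0.094 and -0.23 to -0.13 in E-IAAPs against E-AT2s, and the members' median was 0.28 to 0.41 in E-IAAPs against C-IAAPs. The cause of these changes was not tested.

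The labels give each group 1 replicate, so replicate numbers pair nothing. E-IAAPs and E-AT2s were paired by day, and without the day as a block the count of calls was again 0. The signals limit what can be said of Eif2ak3, Chac1 and Derl3, which lay below background, and of 10 of the 35 genes in C-IAAPs.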
